A study of Mus musculus with 8 samples.

Results

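The 4 Notch receptors (Notch1, Notch2, Notch3 and Notch4), 5 of their ligands (Dll1, Dll3, Dll4, Jag1 and Jag2) and the Notch target Hes1 were followed in RNA-seq data of mouse embryonic stem cells (mESCs) and of the embryoid bodies (EBs) made from them. The 10 genes were taken by name from the 18094 genes of the deposited table, and all 10 were found. The test needed an average of 10 or more normalized counts across the 8 libraries, which 9 of them reached and Dll4 did not. WT and CTCF-K20R cells were compared on day 0 as mESCs and on day 4 as EBs, with 2 libraries for each genotype and day. All were E14Tg2A cells, kept as mESCs on mitomycin C-inactivated mouse fibroblasts in medium with serum, LIF and the 2i inhibitors CHIR99021 and PD0325901. EBs were formed in hanging drops in serum medium from which LIF was left out. In the CTCF-K20R cells, CRISPR/Cas9 with a donor vector replaced lysine 20 of CTCF, a DNA-binding protein of chromatin loops and domain borders, with arginine. Targeted colonies were picked after drug selection, and which colony lies behind which library is not given in the sources used here. A point mutation of this kind is not seen in gene counts, so no gene level checks the genotype labels.

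Notch receptors are single-pass membrane proteins that are read out by contact between cells. A Delta-like or Jagged ligand on one cell pulls on a receptor of its neighbour, ADAM and gamma-secretase proteases then cut the receptor, and its freed intracellular domain joins the DNA-binding protein Rbpj in the nucleus and switches on genes such as Hes1. In the early mouse embryo, Dll1 and Dll3 are known as ligand genes of the primitive streak and presomitic mesoderm, where the pathway takes part in the segmentation clock, while Dll3 differs from the other ligands in that it acts mainly inside the cell that makes it and does not activate receptors of a neighbour. Jag1 and Notch1 have known parts in heart and vessel development. Notch signalling is not needed to keep mESCs undifferentiated.

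The finding turned on 4 ligand genes, and their promoters are shown for that reason. Each sequence below runs from 250 bases before to 50 bases after a RefSeq transcription start on GRCm38.p6, 5′ to 3′ on the strand of the gene, with CpG dinucleotides in capitals. All 4 genes lie on the minus strand. The windows are at chr17:15376883-15377182 for Dll1, chr7:28301736-28302035 for Dll3, chr2:137116471-137116770 for Jag1 and chr12:112929446-112929745 for Jag2. For Dll1, which has 2 RefSeq starts, the window nearer to the annotated gene start is shown.
Dll1: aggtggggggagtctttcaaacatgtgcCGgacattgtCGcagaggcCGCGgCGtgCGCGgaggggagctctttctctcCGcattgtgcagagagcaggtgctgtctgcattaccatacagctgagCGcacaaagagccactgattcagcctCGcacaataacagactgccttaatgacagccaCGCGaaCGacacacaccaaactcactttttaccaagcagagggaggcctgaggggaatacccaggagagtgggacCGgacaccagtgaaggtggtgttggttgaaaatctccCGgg
Dll3: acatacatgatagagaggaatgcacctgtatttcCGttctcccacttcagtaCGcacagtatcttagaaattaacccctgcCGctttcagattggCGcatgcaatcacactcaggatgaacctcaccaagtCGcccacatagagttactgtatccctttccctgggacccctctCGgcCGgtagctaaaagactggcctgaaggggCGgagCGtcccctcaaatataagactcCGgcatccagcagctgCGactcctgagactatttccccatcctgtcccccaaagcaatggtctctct
Jag1: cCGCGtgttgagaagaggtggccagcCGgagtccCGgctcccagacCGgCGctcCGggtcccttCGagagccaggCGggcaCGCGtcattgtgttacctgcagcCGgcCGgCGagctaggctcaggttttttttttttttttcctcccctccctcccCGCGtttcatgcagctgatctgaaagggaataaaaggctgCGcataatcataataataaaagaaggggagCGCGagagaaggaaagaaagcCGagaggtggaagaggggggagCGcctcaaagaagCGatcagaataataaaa
Jag2: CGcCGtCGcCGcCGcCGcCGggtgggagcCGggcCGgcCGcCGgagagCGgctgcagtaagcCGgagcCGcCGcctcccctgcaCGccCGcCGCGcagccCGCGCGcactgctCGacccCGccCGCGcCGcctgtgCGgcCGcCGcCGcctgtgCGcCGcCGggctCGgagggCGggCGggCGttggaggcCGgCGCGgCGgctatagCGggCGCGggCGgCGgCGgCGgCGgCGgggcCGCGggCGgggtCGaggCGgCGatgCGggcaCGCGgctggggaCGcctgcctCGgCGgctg
The Jag2 window held 63 CpGs, a number reached by 0.0307% of the 32544 promoter windows of that length, and its GC content was 86.0%. The windows of Jag1, Dll1 and Dll3 held 22, 15 and 11 CpGs against a median of 7 over all windows, and as many or more were present in 23.3%, 34.9% and 41.7% of windows. The Dll1 window that is not shown, at chr17:15375774-15376073, held 24 CpGs (20.1% of windows), so the Dll1 number depends on the start chosen. Among the 4 genes, the CpG-richest promoter thus belonged to the ligand that was higher in CTCF-K20R EBs, which is a description of these windows and was not tested. Windows were found for 9 of the 10 genes, the exception being Hes1. None of the 10 windows of these 9 genes held, on either strand, the Rbpj core TGGGAA (present in 25.4% of all windows), the CTCF core written as CCA, AG and GGC with 2 free bases between each (2.44%), the T-box core AGGTGT (13.8%) or the TATA box TATAAA (13.6%). The Hes N-box CACNAG, present in 42.6% of all windows, was found in those of Notch1, Notch2, Notch3, Dll1 and Dll4, and 2 of the 3 matches of Notch1 overlap each other. These searches say only which letters stand in these windows.

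Values are given as normalized counts, that is, gene counts that the authors scaled for library size and for differences between libraries in the transcript length of a gene. They are not scaled for length between genes. Library totals ran from 19412659 to 21311513 normalized counts, and 3 reads, taken as the limit of detection, were worth 2.43 to 3.45 normalized counts. The 2 WT libraries of each day differed by less than the noise of read sampling (0.313 of the expected squared difference on day 0 and 0.278 on day 4), whereas the CTCF-K20R pairs differed by 4.00 and 4.35 times the expected. Each WT pair was therefore averaged and counted as 1 sample, and p-values rest on the spread between the CTCF-K20R libraries. That spread is 1 estimate per gene from both days together, so an uneven pair on one day widens the intervals of both. Notch1 and Notch4 were exceptions among the members. The WT libraries of Notch1 differed by 9.13 times the expected squared difference on day 0 and by 18.6 times on day 4, and those of Notch4 by 2.28 times on day 0. A gene was called changed when its absolute log2 fold change was above 1 and its limma p, adjusted over 15767 genes with the Benjamini-Hochberg method, was under 0.05. Fold changes are on the scale of log2(normalized counts + 1). In these bulk samples, fewer cells of a type and less RNA per cell cannot be told apart.

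**Figure D1:**
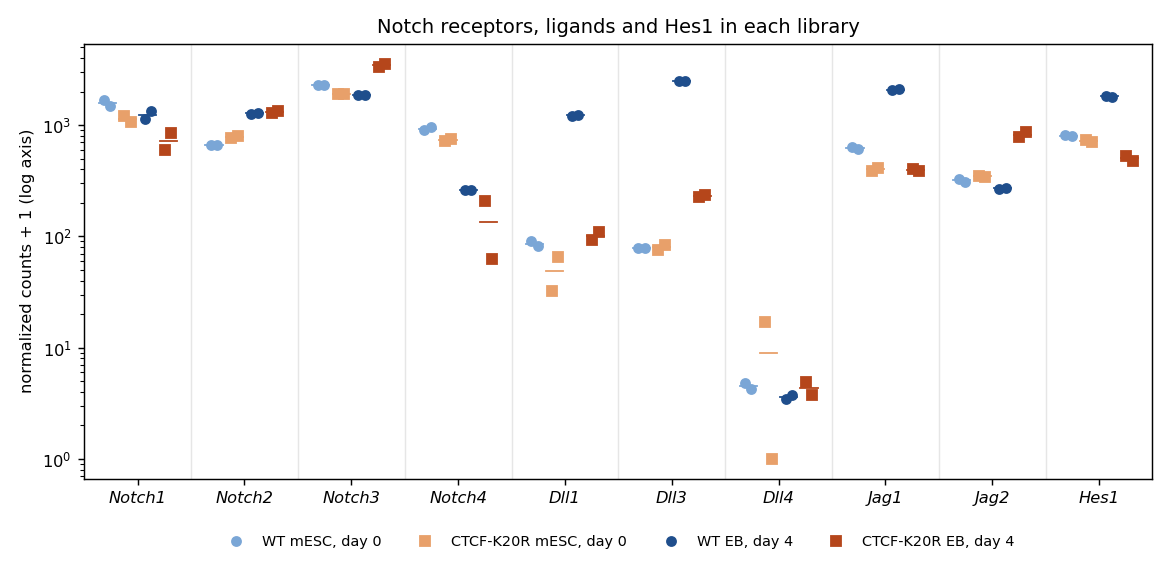
Normalized counts + 1 of the 10 genes in each of the 8 libraries, on a log axis; circles are WT and squares CTCF-K20R libraries, light colours are mESCs and dark colours EBs, and the short lines are group means. In EBs the CTCF-K20R squares of Dll1, Dll3, Jag1 and Hes1 lie well below the WT circles, those of Jag2 and Notch3 lie above them, and those of Notch2 overlap them.

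On day 4, 3 ligands and Hes1 were lower in CTCF-K20R than in WT EBs, and 1 ligand was higher. Dll1, Dll3, Jag1 and Hes1 fell 12.2-fold, 10.9-fold, 5.32-fold and 3.62-fold, and Jag2 rose 3.04-fold. None of the 4 receptors was called. The 5 genes called, 1 higher and 4 lower, are to be read against the background of the comparison, in which 15.5% of all genes tested were called (6.89% higher and 8.65% lower). On the log2 scale the members' median was -1.19, against 0.01 over all genes tested.

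Dll1, the Delta ligand that activates receptors on neighbouring cells, measured 1212 and 1238 normalized counts in WT EBs. In CTCF-K20R EBs it measured 91.5 and 109, so that both libraries were far below both WT libraries. Its log2 fold change was -3.60 ± 0.438 (SE; limma adjusted p = 0.00226). The SE also takes in the CTCF-K20R mESC libraries, which were less even at 31.0 and 64.1. The call rests on both CTCF-K20R libraries, because the adjusted p was 0.0606 without the first and 0.0545 without the second, at log2 fold changes of -3.48 and -3.73. The gene lies at chr17:15367354-15376872 (GRCm38, GENCODE), where A930024N18Rik runs on the opposite strand. Use of strand in the counting is not given in the sources used here, so reads of overlapping opposite genes may have been shared.

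Dll3, the Delta-like protein that stays inside the cell, was the ligand with the highest level per kb in WT EBs (957), where it had 2502 and 2509.55 normalized counts. The CTCF-K20R EBs held 224 and 235. The groups were widely apart, with a log2 fold change of -3.44 ± 0.164 (SE; limma adjusted p = 0.000119). Dll3, at chr7:28293553-28302238, overlaps no other annotated gene.

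Jag1, a Jagged ligand known from vessel and heart development, had 2071 and 2091 normalized counts in WT EBs but 399 and 383 in CTCF-K20R EBs. The libraries of a genotype were close to each other, and the log2 fold change was -2.41 ± 0.0963 (SE; limma adjusted p = 7.46e-05). Jag2, the other Jagged ligand, moved the opposite way. It measured 268 and 271 in WT EBs and 785 and 858 in CTCF-K20R EBs, which gave a log2 fold change of 1.604 ± 0.111 (SE; limma adjusted p = 0.000343). Jag1 lies at chr2:137081456-137116644 and Jag2 at chr12:112907819-112929776. Jag1 counts were 7.74 and 7.71 times those of Jag2 in the WT EB libraries, but 0.508 and 0.446 times in the CTCF-K20R EB libraries.

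Dll4, the ligand best known from sprouting endothelium, was at or near the limit of detection. Its values were 3.85 and 3.22 in WT mESCs, 15.9 and 0 in CTCF-K20R mESCs, 2.46 and 2.77 in WT EBs, and 3.91 and 2.78 in CTCF-K20R EBs. The value of 15.9 stood alone, and no fold is given for a gene at this level.

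Hes1, a bHLH repressor that many cell types switch on when Notch is cut, held 1834 and 1789 normalized counts in WT EBs. Its gene lies at chr16:30064384-30067796. CTCF-K20R EBs held 531 and 470.4, below both WT libraries. The log2 fold change was -1.85 ± 0.104 (SE; limma adjusted p = 0.000178). Hes1 also answers to other pathways, and the cut form of the receptors was not measured here. Dll3, Jag1, Jag2 and Hes1 each remained called under all 21 other settings tried.

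The receptors had smaller log2 fold changes, although that of Notch4 was uncertain. Notch3 measured 1869.9 and 1871 normalized counts in WT EBs, against 3333 and 3559 in CTCF-K20R EBs. Both CTCF-K20R libraries were higher, with a log2 fold change of 0.88 ± 0.0590 (SE; limma adjusted p = 0.000303), which passed the p but stayed under the fold threshold. Notch1 measured 1132 and 1333 in WT EBs and 595 and 842 in CTCF-K20R EBs. Both CTCF-K20R libraries were lower, and its log2 fold change of -0.80 ± 0.209 (SE; limma adjusted p = 0.03) was likewise short of the fold threshold. Without the second CTCF-K20R EB library, Notch1 was called (log2 fold change -1.05, adjusted p = 0.0364). Counting these 2 receptors, 7 of the 9 genes passed the adjusted p alone, as did 40.1% of all genes.

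Notch4, a receptor best known from endothelium, was the least even of the 9 genes in CTCF-K20R EBs. WT EBs held 262 and 258 normalized counts, and the CTCF-K20R EBs 208 and 61.4. Its log2 fold change of -1.19 ± 0.654 (SE) did not pass the test (limma adjusted p = 0.202), and it was called without the first CTCF-K20R EB library (-2.06, adjusted p = 0.0171), whose value was the nearer to WT. Notch2 measured 1267 and 1278 in WT EBs and 1271 and 1341 in CTCF-K20R EBs, which overlap. The difference was 0.04 (limma adjusted p = 0.731), and its 95% confidence interval, -0.15 to 0.23, lay wholly within the fold threshold. Of the 9 genes, 8 had CTCF-K20R libraries that did not overlap the WT libraries, 2 above and 6 below, but so did 85.0% of all genes tested (43.3% above and 41.7% below), so this count is near the background. Notch1 and Notch3 overlap opposite-strand genes of the table, 0610009E02Rik and Gm13568 in the first case and Gm17276 in the second, so that their counts may hold reads of both. The receptors lie at chr2:26457903-26516663 (Notch1), chr3:98013527-98150361 (Notch2), chr17:32120820-32166852 (Notch3) and chr17:34564268-34588503 (Notch4).

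**Figure D2:**
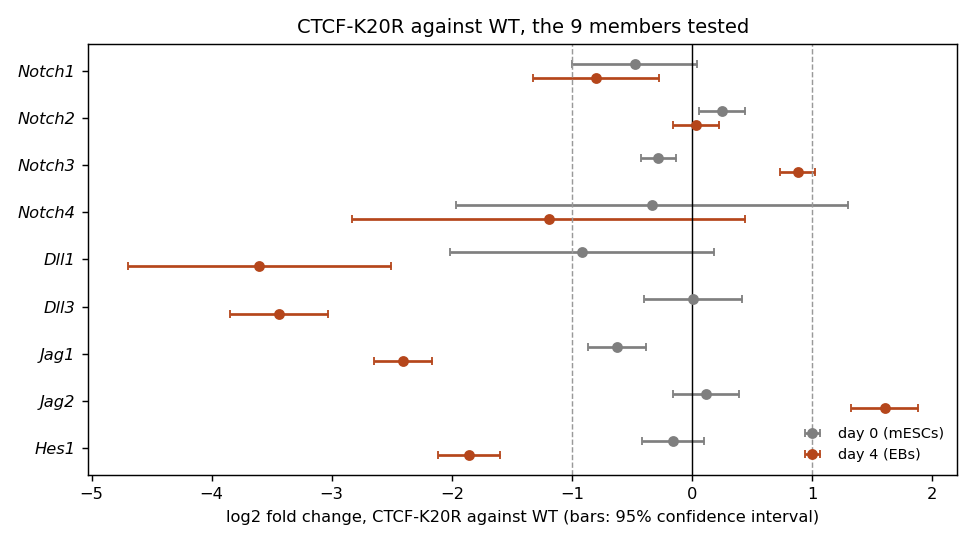
Log2 fold change of CTCF-K20R against WT for the 9 genes tested, on day 0 in grey and on day 4 in red, with 95% confidence intervals from limma; dashed lines mark the fold threshold. The day 4 points of Dll1, Dll3, Jag1, Hes1 and Jag2 lie with their whole intervals beyond the dashed lines, while no day 0 point lies beyond them.

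On day 0, before differentiation, none of the 9 genes was called with limma, against 3.79% of all genes tested. On the log2 scale their median was -0.28, against -0.01 over all genes. At an unadjusted p under 0.05, 3 of the 9 passed (31.5% of all genes), and 2 passed the adjusted p without the fold threshold (15.4% of all genes). Jag1 measured 632 and 606 normalized counts in WT mESCs and 389 and 413 in CTCF-K20R mESCs. It was thus already lower in both CTCF-K20R libraries, at a log2 fold change of -0.62 ± 0.0963 (SE; limma adjusted p = 0.0147), or 1.54-fold. Notch3 measured 2308 in both WT mESC libraries and 1891 and 1914 in CTCF-K20R mESCs, a difference of -0.28 ± 0.0590 (SE; limma adjusted p = 0.0339) in the direction opposite to day 4. Neither Jag1 nor Notch3 kept a day 0 adjusted p under 0.05 in all other settings tried.

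The other ligands had low or similar values in mESCs of both genotypes. Dll1 measured 89.8 and 80.3 normalized counts in WT mESCs and 31.0 and 64.1 in CTCF-K20R mESCs. Both CTCF-K20R values were lower but far from each other, and the log2 fold change of -0.92 ± 0.438 (SE) did not pass (limma adjusted p = 0.222). Dll3 measured 77.6 and 78.0 in WT and 74.3 and 82.8 in CTCF-K20R mESCs. These values overlap, and the difference of 0.01 had a 95% confidence interval of -0.40 to 0.42. Jag2 measured 325 and 309.5 in WT and 346 and 342 in CTCF-K20R mESCs, at a difference of 0.12 with an interval of -0.16 to 0.40. Hes1 measured 817 and 790.1 in WT and 739.9 and 704 in CTCF-K20R mESCs, which were slightly lower at -0.15 (limma adjusted p = 0.366).

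Of the remaining receptors, Notch1 measured 1666 and 1492 normalized counts in WT mESCs and 1215 and 1058 in CTCF-K20R mESCs. Both CTCF-K20R libraries were lower, but the log2 fold change of -0.48 ± 0.209 (SE) did not pass (limma adjusted p = 0.189). Notch2 measured 666 and 662 in WT and 772 and 804 in CTCF-K20R mESCs, a difference of 0.25 (limma adjusted p = 0.0892). Notch4 measured 894 and 961 in WT and 726 and 746 in CTCF-K20R mESCs, a difference of -0.33 with a 95% confidence interval of -1.97 to 1.30. The width of this interval comes from the shared spread, to which the uneven CTCF-K20R EB libraries (208 and 61.4) contribute, and not from the mESC values. The libraries of 8 of the 9 genes did not overlap between genotypes on day 0 either, as held for 77.9% of all genes.

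The difference between the genotypes was itself different between the days for 6 of the 9 genes, called with the same thresholds on the interaction of genotype and day (12.9% of all genes were called, 6.84% with a higher and 6.04% with a lower day 4 difference). The day 4 difference was below that of day 0 by 3.45 ± 0.232 (SE) on the log2 scale for Dll3 (limma adjusted p = 0.000696). It was below by 1.79 ± 0.136 for Jag1 (limma adjusted p = 0.00100) and by 1.70 ± 0.147 for Hes1 (limma adjusted p = 0.00135). For Dll1 the difference between days was -2.69 ± 0.620 (limma adjusted p = 0.0293), a call that was lost under 5 of 20 other settings, among them the fits without either CTCF-K20R EB library (adjusted p = 0.167 and 0.15). It was above that of day 0 by 1.49 ± 0.157 for Jag2 (limma adjusted p = 0.00260) and by 1.16 ± 0.0834 for Notch3 (limma adjusted p = 0.000841). Notch1, Notch2 and Notch4 did not pass this test, and Notch4 hung on single libraries. Its value was 0.01 without the second CTCF-K20R EB library, and without the first it was -1.73 and was called (limma adjusted p = 0.0382). The comparisons of the 2 days set different libraries against each other but share 1 estimate of the spread per gene, so their p-values are not independent. The interaction uses all libraries.

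From day 0 to day 4, Dll3, Dll1 and Jag1 had much higher values in WT EBs than in WT mESCs, while Jag2 was slightly lower and Dll4 stayed near the limit of detection. This change sets 1 averaged sample against 1 and has no test. The WT log2 fold change was 4.99 for Dll3, 3.83 for Dll1, 1.75 for Jag1 and -0.24 for Jag2. Hes1 changed by 1.17 in the same cells. CTCF-K20R cells were tested over 2 libraries a day, and 4 of the 9 genes were called, 3 higher and 1 lower, against 26.1% of all genes (14.5% higher and 11.6% lower). In these cells Dll3 rose by 1.54 ± 0.134 (SE; limma adjusted p = 0.000318), Dll1 by 1.14 ± 0.358 (limma adjusted p = 0.0377) and Jag2 by 1.25 ± 0.0910 (limma adjusted p = 0.000164). The Dll1 call held under 13 of 21 other settings. It was lost, among others, without the first CTCF-K20R mESC library (0.63, adjusted p = 0.0758), without the first CTCF-K20R EB library (1.27, adjusted p = 0.178) and without the second (1.02, adjusted p = 0.247). Jag1 differed by -0.04 between the days in CTCF-K20R cells, with a 95% confidence interval of -0.23 to 0.16.

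Hes1 had a log2 change of -0.53 in CTCF-K20R cells (limma adjusted p = 0.00330), under the fold threshold and opposite in sign to the WT value. Notch4 fell by 2.69 ± 0.534 (SE; limma adjusted p = 0.00744) in CTCF-K20R cells, beside a WT value of -1.83. The log2 change was -1.82 in the fit without the second CTCF-K20R EB library and -3.56 in that without the first. Notch2 changed by 0.73 in CTCF-K20R and 0.94 in WT cells, and Notch1 by -0.68 and -0.36. Notch3 was the receptor whose sign differed, with 0.86 in CTCF-K20R and -0.30 in WT cells. Notch1, Notch2, Notch3 and Hes1 passed the adjusted p alone in CTCF-K20R cells, so that 8 of the 9 genes did (58.5% of all genes).

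**Figure D3:**
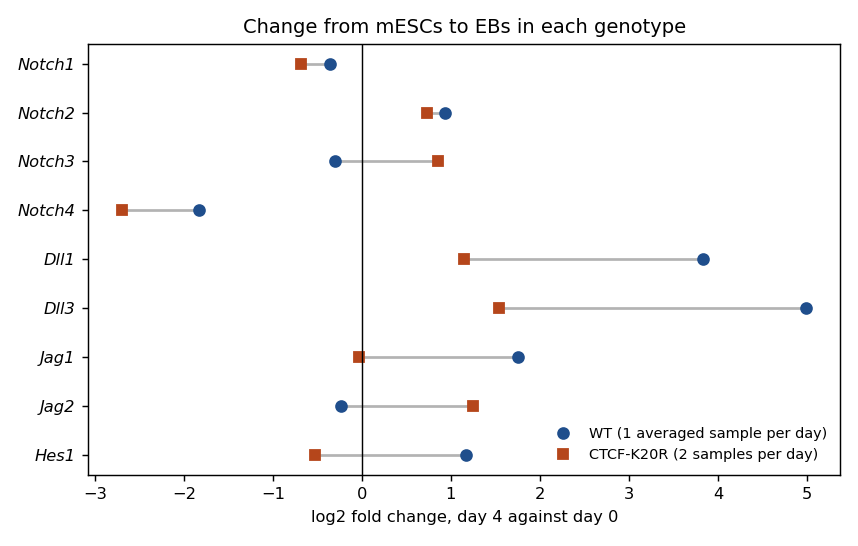
Log2 fold change from day 0 to day 4 of the 9 genes tested, with WT as blue circles (1 averaged sample per day, no test) and CTCF-K20R as red squares (2 libraries per day), joined by a line. Dll3 and Dll1 have WT values of 4.99 and 3.83 but CTCF-K20R values of 1.54 and 1.14, and for Notch3, Jag1, Jag2 and Hes1 the 2 points lie on different sides of 0, that of Jag1 in CTCF-K20R cells at -0.04.

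To compare levels between genes, normalized counts were divided by the length of the longest coding transcript in kb. On this scale WT EBs ranked Hes1 (1234 per kb), Dll3 (957), Jag1 (371), Dll1 (342), Notch3 (233), Notch1 (130), Notch2 (121), Jag2 (52.8), Notch4 (39.4) and Dll4 (0.698). Only Notch1 and Notch2 had overlapping libraries among neighbours in this order. CTCF-K20R EBs ranked Notch3 (430 per kb), Hes1 (341), Jag2 (161), Notch2 (124), Dll3 (87.8), Notch1 (75.7), Jag1 (69.6), Dll1 (28.0), Notch4 (20.4) and Dll4 (0.892). Here the libraries of Dll3 and Notch1, of Notch1 and Jag1, and of Dll1 and Notch4 overlapped. In mESCs the order began with Hes1, Notch3, Notch1 and Notch4 in both genotypes and ended with Dll3, Dll1 and Dll4, where the libraries of Notch1 and Notch4 overlapped in CTCF-K20R cells.

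In WT cells the summed level of the 5 ligands per kb was 0.35 and 0.339 of that of the 4 receptors in the mESC libraries and 3.35 and 3.24 times it in the EB libraries. In CTCF-K20R cells the ratio was 0.326 and 0.352 in mESCs and 0.534 and 0.533 in EBs, so ligand transcripts stayed below receptor transcripts on both days. The ligand sum was 1716 and 1731 per kb in WT EBs against 337 and 357 in CTCF-K20R EBs, while the receptor sum was 513 and 535 against 631 and 669.8. The make-up of both sums also differed. Dll3 made up 55.7% and 55.4% of the ligand sum in WT EBs and 25.4% and 25.2% in CTCF-K20R EBs, and Jag2 3.05% and 3.07% against 45.6% and 47.0%. Notch3 made up 43.1% to 45.5% of the receptor sum in the 6 other libraries and 65.9% and 66.3% in CTCF-K20R EBs. These ratios are of transcripts, and no protein was measured.

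**Figure D4:**
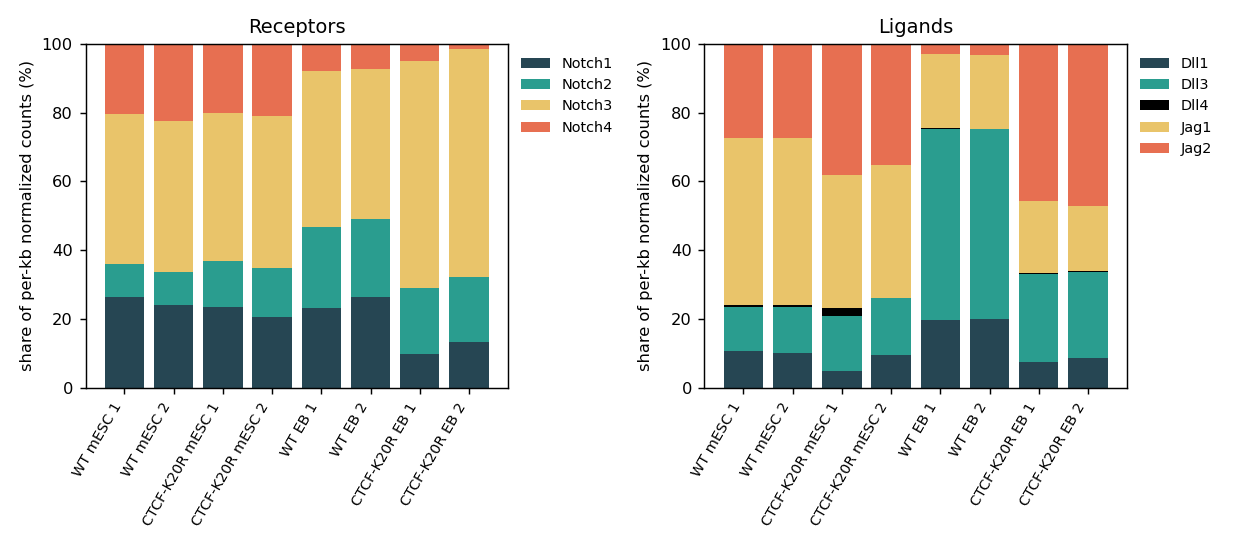
Share in percent of each receptor (left) and each ligand (right) in the summed per-kb normalized counts of its class, 1 bar per library. WT EB bars are mostly Dll3, Jag1 and Dll1, whereas Jag2 takes 45.6% and 47.0% of the CTCF-K20R EB bars, and Notch3 takes 65.9% and 66.3% of the receptors there.

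Beyond the 10 genes, 70 other genes of the pathway were listed by role, of which 69 were in the table and 65 were tested. On day 4, 3 were called higher and 9 lower, or 18.5% of the list against 15.5% of all genes, with a median of -0.15 on the log2 scale. The list as a whole was thus near the background, and the called genes were spread over 7 of its 8 groups. On day 0, 2 were called, both lower, or 3.08% against 3.79%.

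Among 3 other Notch-binding or Delta-like proteins, Dner, a neuronal transmembrane ligand, fell from 76.04 and 70.7 normalized counts in WT EBs to 18.1 and 13.2 in CTCF-K20R EBs (log2 fold change -2.18, limma adjusted p = 0.00859), and the other 2 were not called. Among 8 tested genes that put sugars on the receptors, 2 were called. Lfng, the Fringe enzyme that alters which ligands a receptor answers to, fell from 775 and 766 to 117 and 131 (-2.63, limma adjusted p = 0.000840) and was also lower in mESCs (-1.03, limma adjusted p = 0.0438). Eogt, an O-GlcNAc transferase, fell by 1.68 on the log2 scale. None of the 6 genes for ligand ubiquitination and endocytosis was called, nor did any pass the adjusted p alone. Their log2 fold changes ranged from -0.23 to 0.22.

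Of 10 genes for receptor cleavage, 1 was called, namely Aph1b, a subunit of gamma-secretase (-1.67, limma adjusted p = 0.0147). Rbpj, through which all 4 receptors act on DNA, measured 2481 and 2492 normalized counts in WT EBs, against 2687 and 2665 in CTCF-K20R EBs, a difference of 0.11 (limma adjusted p = 0.0931). In its co-activator group of 9, Maml3 fell (-1.11) and Kat2b rose (1.02). Among 13 co-repressors, Tle2 fell (-1.67, limma adjusted p = 0.0268). Among 10 genes for receptor trafficking and turnover, the Deltex genes Dtx1 and Dtx4 rose by 1.08 and 1.28, although both were lower in CTCF-K20R mESCs, at -0.91 and -1.14, where Dtx4 alone was called.

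Of 6 tested genes in the group of other Notch-responsive genes, 3 were called and all 3 were lower, beside 8.65% of all genes called lower. Hes7, the oscillating repressor of the segmentation clock, fell by 2.04 on the log2 scale, Nrarp, a feedback inhibitor, fell by 1.73, and Hey1, a Hes relative, fell by 1.02. Nrarp measured 575 and 583 normalized counts in WT EBs, against 166.5 and 181 in CTCF-K20R EBs. Hey1 measured 459 and 440.5 against 209 and 235. Hes3, Hes5 and Heyl were below the mean needed for the test. Their EB values were low, but in each case both CTCF-K20R libraries were above both WT libraries. Hes5 measured 1.88 and 3.17 in WT EBs against 10.6 and 7.54 in CTCF-K20R EBs. Heyl measured 0.875 and 0.739 against 5.29 and 2.01, and Hes3 0 and 1.61 against 3.48 and 3.24. Hey2, another Hes relative, was not called, at 61.3 and 58.4 in WT EBs against 47.5 and 44.6 in CTCF-K20R EBs (-0.37, limma adjusted p = 0.473). Myc and Ccnd1, which many pathways regulate, were not called either, at 0.03 and -0.64. Ccnd1 passed the adjusted p alone (limma adjusted p = 0.00147).

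**Figure D5:**
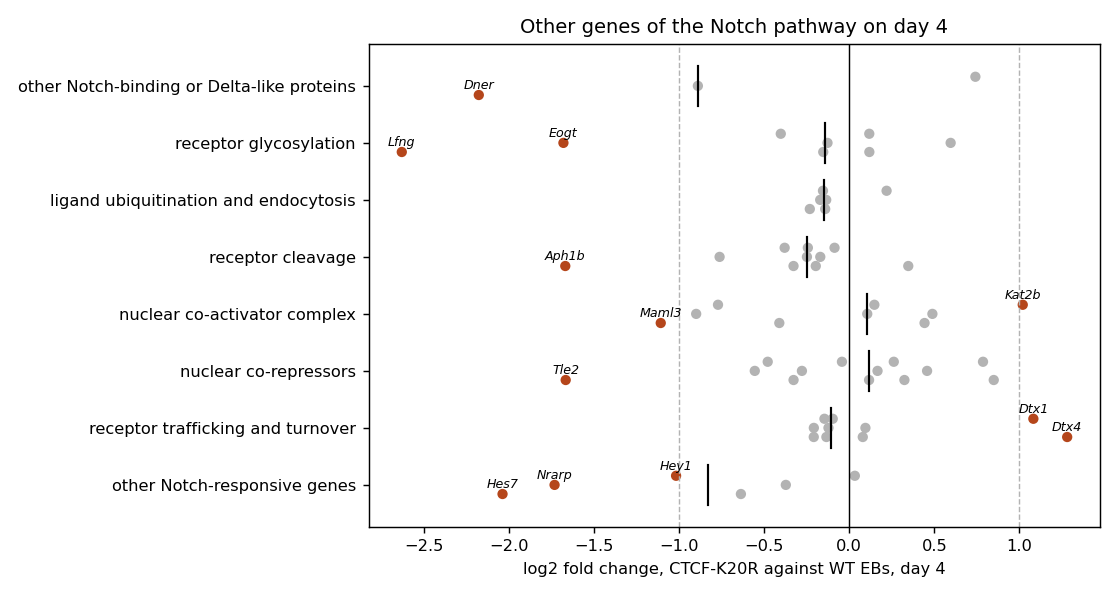
Day 4 log2 fold change of CTCF-K20R against WT EBs for the 65 tested genes of the pathway beyond the 10 members, 1 point per gene in 8 groups; red points were called, the vertical bars are group medians and dashed lines mark the fold threshold. Called genes lie on the lower side in the ligand-like, glycosylation, cleavage, co-repressor and Notch-responsive groups, on the higher side in the trafficking group and on both sides among co-activators.

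The EBs of the 2 genotypes also differed in lineage markers, whose part in the Notch results was not tested. The 8 primitive streak markers summed to 42660 and 42738 normalized counts in WT EBs and to 3521 and 3459 in CTCF-K20R EBs, with 7 of 8 called lower. The 8 presomitic markers summed to 3990 and 4016 against 203 and 177, where 6 of the 7 tested were called lower and 1, Ripply1, higher. The 12 endothelial and blood markers summed to 3350 and 3338 against 577 and 517, most of which was Kdr in WT EBs (mean 2303 against 36.2). Of the 9 tested, 3 were called lower and 2 higher, and Emcn was at 0 in all libraries. Pluripotency markers summed to 15550 and 15662 against 32137 and 31410 in EBs, and to 104960 to 106170 in mESCs. All 8 were above the limit of detection in every group, and in EBs 4 were called higher and 1 lower. Most of the EB sums was Pou5f1 (mean 12646 against 21765), which was not called at a log2 fold change of 0.78. The 5 neural markers in the table summed to 251 and 248 against 509 and 512, with 2 of 5 called higher. Most of these sums was Tubb3 (mean 199 against 329), which was not called. The visceral endoderm list, whose Sox17 and Foxa2 also mark other endoderm, summed to 4148 and 4185 against 149 and 111, with 2 of 4 called lower and 1 higher. Sox17 and Foxa2, the 2 called lower, made up nearly all of the WT EB sums (means 1896 and 2243). Hes7 belongs both to the presomitic markers and to the Notch-responsive genes. Feeder fibroblast markers summed to 530 to 681 in mESCs and 955 to 1045 in EBs of both genotypes. On day 4, 2 of 7 were called higher and 2 lower. On day 0, 1 was called higher, Pdgfrb (mean 134 in WT against 361 in CTCF-K20R mESCs), and 1 lower, Thy1 (mean 462 against 104). These 2 genes made up most of the mESC sums, so the similar sums hide opposite differences. Dcn, Col3a1, Postn and Lum were at 0 in WT mESCs, and Dcn and Postn in CTCF-K20R mESCs. Lum was at 0 in WT EBs and Postn in CTCF-K20R EBs.

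Genes around the members on the chromosome had medians near 0, over stretches of 0.538 Mb (Notch4) to 9.997 Mb (Jag1). Over the 10 tested genes on each side, the median day 4 log2 fold change lay between -0.13 (around Jag1) and 0.26 (around Dll1) for the 10 genes, and 1 to 5 of the 20 neighbours were called, beside 15.5% of all genes. Around Dll3 the median was -0.10 with 3 of 20 called, and around Jag2 it was 0.21 with 2 of 20. A median does not describe single neighbours. The nearest tested gene on each side of Dll3, at -0.00998 and 0.0109 Mb between midpoints, had day 4 values of -2.80 and 0.07. Their day 0 values were -1.32 and 0.25. On day 0 the medians lay between -0.19 and 0.07.

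The genes whose profiles lay closest to those of the members were taken by the smallest Euclidean distance between mean-centred log2 profiles over the 6 samples, among 15765 genes. For Dll3 these were Cdh6, Flt1 and Amer2 (distances 0.403, 0.496 and 0.519), and for Dll1 they were S1pr5, Dnah5 and Prokr1 (0.666, 0.779 and 0.804). Cdh6 (1.13 to 2.20 normalized counts) and Amer2 (0.953 to 1.14) were below the limit of detection in all mESC libraries. Dnah5 was near or below it in CTCF-K20R mESCs (1.08 and 3.30), so the day 0 part of these profiles is uncertain. Jag1 was nearest to Rhpn1, Tcf7l2 and Col4a1, and Hes1 to Lgalsl, Col5a1 and Gfpt2. Flt1, for example, went from 96.9 and 100.5 normalized counts in WT mESCs to 2789 and 2809 in WT EBs, and to 336 and 348 in CTCF-K20R EBs. Jag2 was nearest to Slc2a1, Polg and Utp14a, at distances of 0.158, 0.227 and 0.268. Slc2a1, a glucose transporter, measured 12500 and 12440 in WT EBs and 33820 and 34190 in CTCF-K20R EBs. Notch3 was nearest to Flcn, Psrc1 and Fam169a, Notch2 to Krtcap2, Hmgcs1 and Tnfaip8, Notch1 to Atg14, Snx29 and Apmap, and Notch4 to Lin7b, Cd37 and Gja4. With 6 samples in 4 groups, many genes share any such profile, and the distance describes these samples only.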

How the data were processed

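The data were 8 RNA-seq libraries, 2 each of WT and CTCF-K20R mESCs (day 0) and EBs (day 4). Reads were adaptor-trimmed (Trim Galore), quantified on mm10 (Salmon) and collapsed to genes by the authors, and the deposited signal is the DESeq2-normalized count of each gene in each library. Because the scaling differs from gene to gene, reads cannot be counted back exactly from these values, and tests for counts were avoided. The worth of 1 read, used for the limit of detection and the sampling noise, is the commonest low value of each library and so approximate. The annotation release and use of strand are not given in the sources used here. 1 row without a gene name stayed in the tests and was left out of the search for nearest profiles only.

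For genes averaging 10 or more, log2(value + 1) entered limma 3.58.1 under R 4.3.3 (eBayes with a mean-variance trend, 1 mean per group, Benjamini-Hochberg adjustment, two-sided); 2 residual and 3.51 prior degrees of freedom stood behind each test. The study's methods call its libraries biological replicates. WT pairs were averaged because they differed by less than sampling noise, so 6 samples entered the fit, and the WT change over time has no test. The fit was also run on simulated data. There each WT pair was drawn from 1 pool and all genes had the same dispersion, so that run does not check the choice to average the WT pairs. Positions came from GENCODE vM21 (GRCm38), promoter windows from RefSeq (GRCm38.p6). Python 3.11.15, pandas 2.3.3 and matplotlib 3.10.9 read and drew the data. Named genes are the 10 members, Rbpj, up to 4 called genes of each pathway group by day 4 fold change, and the 3 nearest profiles of each member. Cell type markers and other pathway genes given with their values beside these were named for what the text says of them after their values were seen. The members and lists were chosen with earlier results of these data known. The ChIP-seq, ATAC-seq and Hi-C data of the study were not used here.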

Additional observations from a re-analysis of the deposited data

Results flagged for a closer look

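For 6 members, the effect of the genotype differed between mESCs and EBs by a test of the difference itself, the interaction of genotype and day in limma. The day 4 log2 fold change of CTCF-K20R against WT minus that of day 0 was -3.45 for Dll3, -2.69 for Dll1, -1.79 for Jag1 and -1.70 for Hes1. It was 1.49 for Jag2 and 1.16 for Notch3. Notch3 passed the adjusted p with opposite signs on the days, at -0.28 on day 0 and 0.88 on day 4. Its day 0 value stayed between -0.31 and -0.27 under 21 other settings but did not pass the adjusted p in all of them. The day 0 value of Dll3 was 0.01 and did not pass. Jag1 was lower in CTCF-K20R cells on both days, at -0.62 and -2.41.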

How the results depend on the processing

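The number of members called kept within 1.5 times under the other settings except in these cases. Without a minimum fold change, 2 members were called on day 0 and 8 over time in CTCF-K20R cells, and without the mean-variance trend 2 were called over time. Leaving out 1 library at a time gave 5 to 5 members on day 4, 0 to 0 on day 0, 5 to 6 for the difference between days and 3 to 4 over time. The members behind the 5 on day 4 were not fixed: Dll1 was lost and Notch4 or Notch1 gained without a CTCF-K20R EB library. Signs reversed for Notch2 on day 4 (-0.00154 without CTCF-K20R EB replicate 2, 0.07566 without replicate 1), Dll3 on day 0 (-0.01678 with rescaling by median ratios and -0.06578 without CTCF-K20R mESC replicate 2, 0.08767 without replicate 1), Notch4 in the difference between days (0.01382 without CTCF-K20R EB replicate 2, -1.731 without replicate 1) and Jag1 over time (0.00528 without CTCF-K20R mESC replicate 2, -0.07981 without replicate 1). The causes were not tested, beyond the smaller number of samples in the fits without a library. The deviations of same-numbered libraries correlated at -0.044 to 0.021 between groups. As the WT pairs differed by less than sampling noise, their deviations could not show a pairing. Only the value between CTCF-K20R mESCs and EBs (-0.044) bears on it, so no pairing was seen there and none could be judged for WT. A replicate block left the counts at 5, 0, 6 and 4. With all 8 libraries as separate samples the members' counts were again 5, 0, 6 and 4, while over all genes 1348 were called on day 0 against 598, and 3340 for the difference between days against 2031. Over all genes on day 0, 56 were called without the trend, 146 with the compared libraries alone and 234 at an adjusted p under 0.01. Without 1 library at a time, between 0 and 615 genes were called on day 0, 1590 and 2474 on day 4 (2451 with all), and 885 and 2059 for the difference between days, the lowest in each case without a CTCF-K20R EB library. At an adjusted p under 0.01 the difference between days was called for 1113 genes. With 2 CTCF-K20R libraries per day, small differences of uneven genes such as Notch4 could not be resolved.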
